A study of Mus musculus with 14 samples.

Results

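The genes described here are 33 genes of the type I interferon response, measured in mouse peritoneal B-1a cells labelled Bmi1 KO or wild type (WT). They were chosen by name from known interferon-induced genes and their regulators, and every probe of the array that carries one of these gene names was used. That gave 41 probes of 55681 and 33 of 34821 gene names, with 1 probe for 25 of the genes and 2 probes for 8. The groups are Bmi1 KO and WT, with 7 samples each and 1 one-colour array per sample. KO and WT refer throughout to the genotype in the labels, which do not give the strain, age or sex, the part of Bmi1 that was removed, or the cells it was removed from. The series text names 2 sets of experiments, which were assigned from the way the sample titles are numbered: set 1 has 3 KO and 3 WT arrays, and set 2 has 4 of each. Since the labels do not say whether each sample is a different mouse, p-values cover only the spread among these samples, some of which may be technical, and precision is limited by how many arrays there are.

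Type I interferons, the alpha interferons and interferon beta, bind a receptor made of Ifnar1 and Ifnar2. The receptor's kinases Jak1 and Tyk2 activate Stat2, which with Irf9 is part of a complex, ISGF3, that binds interferon-stimulated response elements (ISREs) in the promoters of the induced genes. Those genes encode sensors of foreign RNA and DNA, proteins that block viral replication, the ubiquitin-like protein Isg15, guanylate-binding GTPases, and factors such as Irf7 that amplify or restrain the response. B-1a cells, which carry Cd5, are B lymphocytes abundant in the peritoneum and pleura and make natural antibodies. Bmi1 belongs to Polycomb repressive complex 1, a silencer of developmental genes.

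The KO arrays as labelled were dimmer than the WT arrays. Well above background lay 40.6% ± 14.4 (SD, n = 7) of all probes on KO arrays and 52.3% ± 7.25 (SD, n = 7) on WT arrays (exact permutation test of genotype within sets, two-sided, p = 0.0457 over 1400 arrangements). On 4 KO arrays, replicate 4 of set 1 and replicates 1, 2 and 3 of set 2, the share was under 40%, and no WT array was that low. These 4 are called dim below, and results are given with and without them. The 2 Bmi1 probes, at chr2:18607987-18608046 and chr2:18607531-18607590 (mm9), were detected on 5 and 6 KO arrays and on 3 and 6 WT arrays. Their KO minus WT differences were 3.74 (SE 0.87) and 1.09 (SE 0.90) on the log2 scale (limma, Benjamini-Hochberg adjusted p = 0.176 and 0.547), so Bmi1 signal was not lower in the samples labelled KO. Because the removed part of the gene is not given, these probes do not check the labels, and every direction below rests on the labels. Of 10 B cell markers, 9 or 10 were above background on each array, while of 8 B-1a markers 4 to 8 were on KO arrays and 7 or 8 on WT arrays. Of the 8 B-1a markers 0 passed the test, and those of smallest p were Plscr1 at -3.63 (SE 0.83; limma, adjusted p = 0.176), itself interferon-induced, and Bhlhe41 at -4.61 (SE 1.10; limma, adjusted p = 0.182), each above background on 4 KO and 7 WT arrays, and S100a6 at 1.78 (SE 0.77; limma, adjusted p = 0.359). Markers of other cells were present in both genotypes: 5 to 10 of 13 macrophage markers on KO arrays and 7 to 11 on WT arrays, including Csf1r and Emr1 on all 14 arrays, and 2 to 7 and 4 to 7 of 10 dendritic cell markers, including Siglech on all 14. The mean level of the macrophage markers ranged from -1.78 to 3.71 on KO arrays and from -1.59 to 1.08 on WT arrays, and that of the dendritic cell markers from -2.95 to -0.08 and from -3.02 to -1.94. The dendritic cell markers Itgax and Clec9a were not above background on any array. Of the macrophage markers, Cx3cr1 was above background on 1 KO and 1 WT array, Timd4 on 1 and 2, and Gata6 on 2 and 2. C1qa and Mrc1 were each above background on 3 KO and 2 WT arrays. Of 11 T or NK cell markers 2 to 8 were detected on KO and 5 to 9 on WT arrays, of 11 mast cell or granulocyte markers 1 to 7 and 1 to 5, and of 7 mesothelium or erythroid markers 0 to 3 in both. The part of these cells in the interferon gene values was not tested.

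RefSeq promoters, 250 bases before to 50 bases after the gene start in build GRCm38.p6, were in hand for 24 of the 33 genes and were searched for the element that ISGF3 binds. The ISRE core was searched on either strand as GAAA, any 2 bases and GAAA again, so that a match on the other strand reads TTTC, any 2 bases and TTTC. It was found in 14 of the 24 genes (58.3%), against 3.99% of 27025 genes in the whole table. This is not particular to the 33 genes. Of the lists described below, it was found in 26 of 69 other interferon-induced genes, 11 of 21 interferon genes and 3 of 4 p200 genes. Among receptors, kinases and Stat factors it was found in 0 of 9, among genes of interferon production in 2 of 13, and among negative regulators in 1 of 7. The gamma-activated site, an element of the response to interferon gamma, was searched as TTCNNNGAA. It was found in 6 of 24 genes (25%), against 9.55% of all genes, and in Bst2 it overlaps an ISRE core. The 22 ISRE matches began between 222 bases before and 33 bases after the gene start, 4 of them after it, and 7 genes had several, with those of Trim30a in promoters of different start sites. The 8 stretches below belong to the genes with a match and the smallest unadjusted p in the comparison of genotypes. They are written 5′ to 3′ on the strand of the gene, with the ISRE core, or the run of overlapping cores, in capitals.

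Trim30a (chr7:104465210-104465239, minus strand): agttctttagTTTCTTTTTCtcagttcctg

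Isg15 (chr4:156200871-156200900, minus strand): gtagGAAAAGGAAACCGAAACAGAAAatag

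Gbp3 (chr3:142559992-142560021, plus strand): gacacagTTTCAGTTTCTATTTCccagatc

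Oas1a (chr5:120907523-120907552, minus strand): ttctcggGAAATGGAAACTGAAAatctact

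Eif2ak2 (chr17:78882535-78882564, minus strand): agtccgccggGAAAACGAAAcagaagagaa

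Ddx58 (chr4:40239804-40239833, minus strand): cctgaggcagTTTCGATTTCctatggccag

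Ifih1 (chr2:62646206-62646235, minus strand): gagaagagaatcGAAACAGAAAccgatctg

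Bst2 (chr8:71537580-71537609, minus strand): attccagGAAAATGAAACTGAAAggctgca

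Isg15, which encodes a ubiquitin-like protein joined to other proteins, holds 3 overlapping cores, the first beginning 78 bases before the gene start. Gbp3, Oas1a and Bst2 hold 2 overlapping cores each, beginning 45, 20 and 130 bases before it. The Trim30a core lies 36 bases before the start, and those of Ddx58, Eif2ak2 and Ifih1 lie 3, 19 and 33 bases after it. By role, a core was found in 3 of 3 sensors with a promoter in the table, 6 of 10 antiviral effectors, 1 of 4 transcription factors (Stat2), and 3 of 6 genes of the group with the GTPases. A match describes these letters and does not show that the factor binds there.

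**Figure D1:**
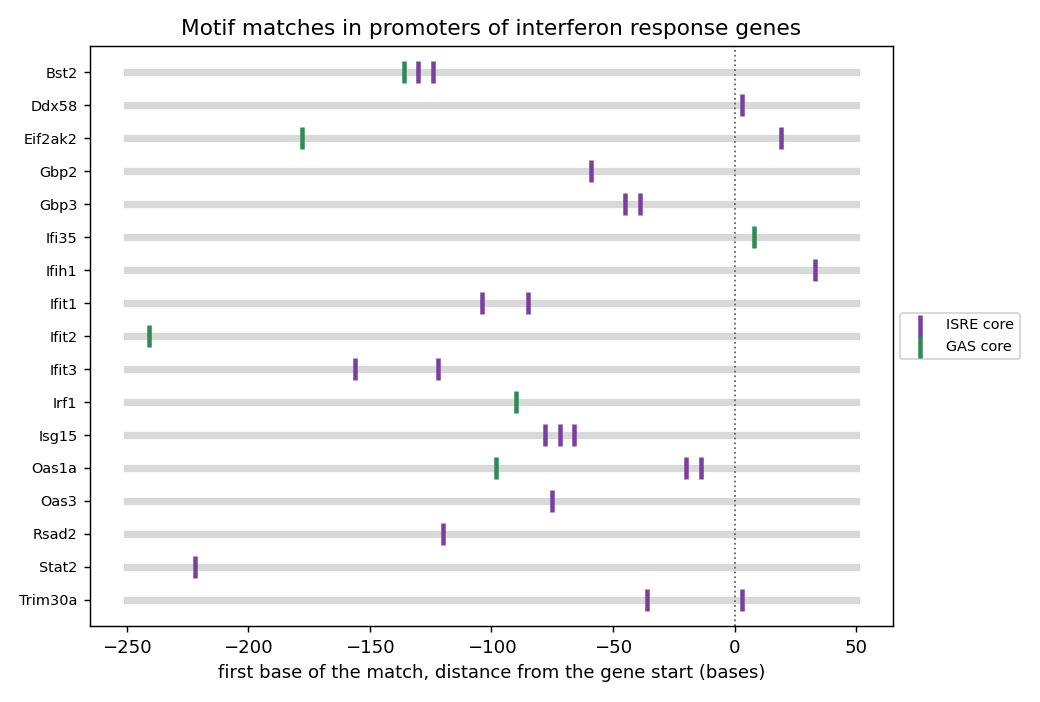
Positions of the ISRE core (purple) and the core of the gamma-activated site (green) in the promoters of the interferon response genes that hold either, by distance in bases from the gene start (dotted line); the grey bar is the 300-base window searched. Most ISRE cores lie before the gene start, and 4 of 22 lie after it.

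On average, fewer interferon response genes were detected on a KO array than on a WT array, but not on the KO arrays that were not dim. In the deposited scanner output each spot carries a mark for signal well above background. By that mark 18.9 ± 8.99 (SD, n = 7) of the 41 probes were detected on a KO array and 27.7 ± 5.06 (SD, n = 7) on a WT array. The KO arrays ranged from 10 to 32 with a median of 15, and the WT arrays from 21 to 35 with a median of 27, so the groups overlap. On the 3 KO arrays that were not dim the number was 28 ± 4 (SD), inside the WT range. Dim arrays were picked by the same mark over all probes and left out of KO only, which by itself favours a higher number. Of all probes, these 3 arrays detected 55% ± 2.28 (SD), against 52.3% on WT arrays. Counted by gene, 16 ± 7.12 of the 33 had a detected probe on a KO array and 23.3 ± 3.86 on a WT array, and again 23.3 ± 2.52 on the KO arrays that were not dim. In bulk RNA, fewer cells that express a gene and less RNA per cell cannot be told apart.

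**Figure D2:**
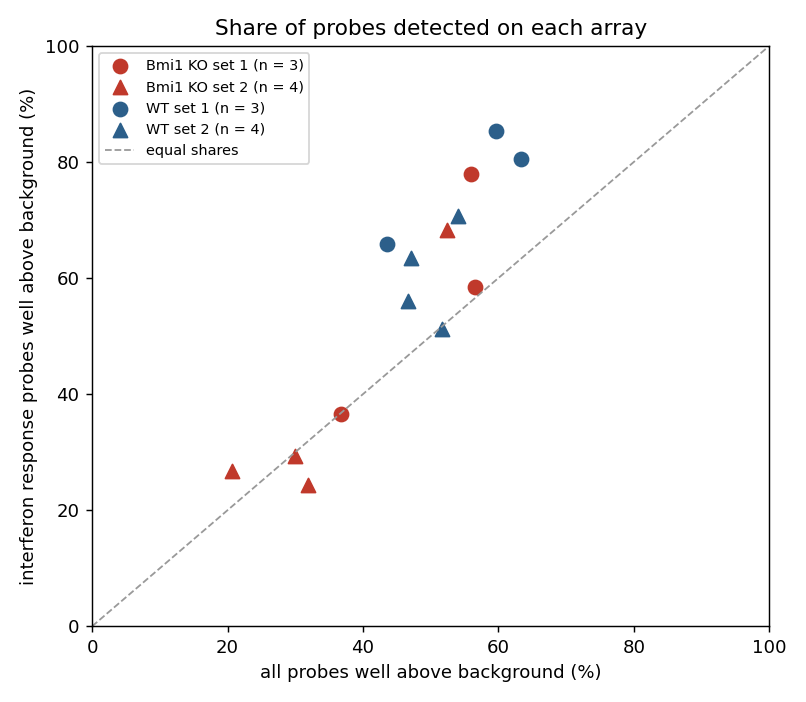
Percent of the 41 interferon response probes (vertical axis) against percent of all 55681 probes (horizontal axis) well above background, 1 point per array; circles are set 1, triangles set 2, red Bmi1 KO, blue WT, and the dashed line marks equal shares. The 4 dim KO arrays sit at the lower left, near the line, and most other arrays lie above it.

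Set by set, WT arrays of set 1 detected 77.2% ± 10.2 (SD, n = 3) of the interferon response probes and those of set 2 60.4% ± 8.54 (SD, n = 4). KO arrays detected 57.7% ± 20.7 (SD, n = 3) in set 1 and 37.2% ± 20.8 (SD, n = 4) in set 2. Relative to the share of all probes on the same array, the share of interferon response probes was larger by 15.3 ± 8.59 percentage points on WT arrays and by 5.4 ± 10.3 on KO arrays (SD, n = 7 each). It was larger by 13.3 ± 10.3 points on the 3 KO arrays that were not dim.

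Probe by probe, 31 of the 41 probes (75.6%) were above background on fewer KO than WT arrays, against 59.2% of the 46330 probes detected on any array. Only 2 of 41 (4.88%), Trim30a and the second Xaf1 probe, were above background on more KO arrays, against 14.2% of all probes. In set 1 the shares were 48.8% of the interferon response probes and 30.2% of all probes on fewer KO arrays, and in set 2 they were 65.9% and 55.2%. On more KO arrays were 7.32% of the interferon response probes in either set, against 16.2% of all probes in set 1 and 7.57% in set 2. Antiviral effectors had 14 of 16 probes on fewer KO arrays, sensors 7 of 8, transcription factors 4 of 5, and Isg15 with Usp18 3 of 3, but the GTPases and other induced genes had 3 of 9. Ly6e, Ifi35, Gbp3 and a Zbp1 probe were above background on all 14 arrays, which is 9.76% of the 41 against 15.2% of all probes. At the other end, 4 of 41 were detected on at most 2 of 14 arrays, against 41.6% of all probes, and such probes have little room to differ. Among probes detected on all 7 WT arrays, the median number of KO arrays was 6 for the 12 interferon response probes and 6 for all 16402. On all 7 KO arrays were 33.3% and 43% of them. All counts in this paragraph include the 4 dim KO arrays.

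**Figure D3:**
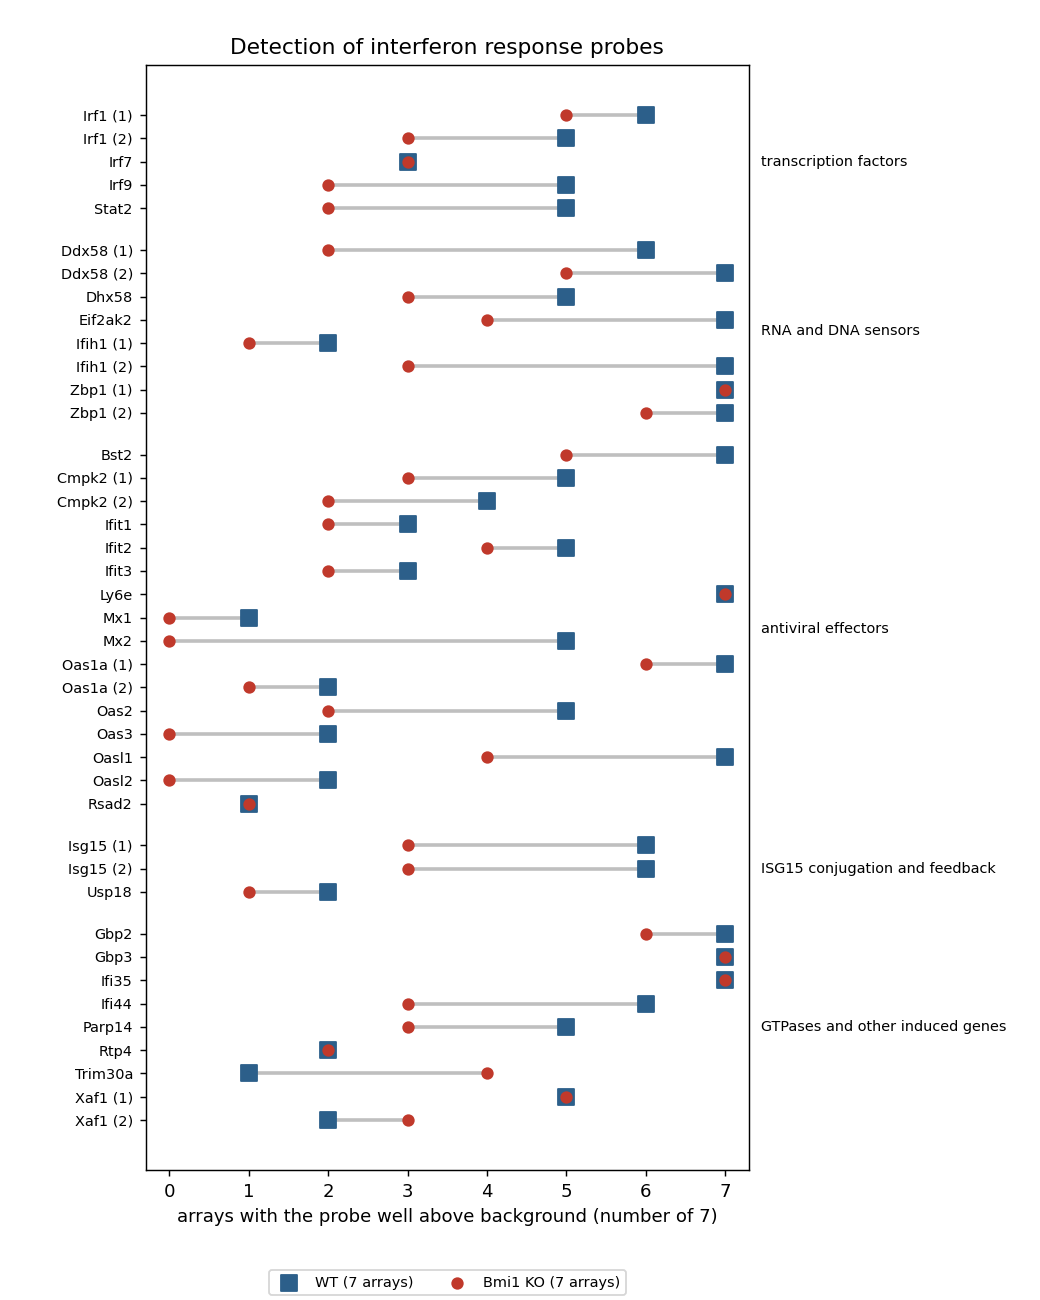
Number of arrays of 7 on which each interferon response probe was well above background, for WT (blue squares) and Bmi1 KO (red circles), grouped by role; genes with 2 probes have a number in brackets. The red circle lies to the left of the blue square for 31 of 41 probes and to the right for Trim30a and the second Xaf1 probe.

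For levels, the log2 signal of a probe was set relative to the 75th percentile of its array, and a probe entered the test if it was above background on at least 4 of 7 arrays of either genotype. Of the 41 probes 29 did, covering 24 genes. Ifit1, Ifit3, Irf7, Mx1, Oas3, Oasl2, Rsad2, Rtp4 and Usp18 had no tested probe. A probe that entered through 1 genotype only was picked for its detection there, so the numbers over the 29 are descriptions. The direction of its difference was not fixed by this: Ifi44 entered through WT alone and was higher in KO, at 0.39. None of the 29 passed an adjusted p of 0.05 (limma, Benjamini-Hochberg over 29679 probes), where 0.0303% of all probes did, 0.00337% as higher and 0.027% as lower in KO. At an unadjusted p under 0.05 stood 4 of 29 (13.8%), against 13.6% of all probes. Of these 4, Trim30a, Ly6e and Gbp3 were higher in KO, against 8.18% of all probes, and Isg15 was lower, against 5.38%. Without the dim arrays 4 of 29 (13.8%) stood below that limit, against 6.05% of all probes, but these were not the same 4. They were Trim30a, higher in KO, and Mx2 and a probe each of Isg15 and Ddx58, lower in KO. Ly6e, at 0.46 (SE 0.52), and Gbp3, at 0.15 (SE 0.53), were not among them. Trim30a had entered the test through KO alone, and Mx2 and the Isg15 probe through WT alone.

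The median KO minus WT difference was -0.04 over the 29 interferon response probes and 0.32 over all tested probes, so that the interferon response probes lay at -0.36 relative to all probes. Below 0 lay 15 of 29 (51.7%), against 40.2% of all probes. Single probes ranged from -2.44 to 2.02 relative to the median of all probes, and 18 of 29 were below it. Scaling each array to the probes detected on all 14 arrays moved the median of all probes to -1.02 and that of the interferon response probes to -1.38. Such a scaling shifts every probe by the same amount, so it cannot change a value relative to all probes. That relative median was -1.02 without replicate 2 of the KO arrays in set 2, and -0.04 with normexp background correction. Without the dim arrays the medians were -0.11 and -0.48.

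**Figure D4:**
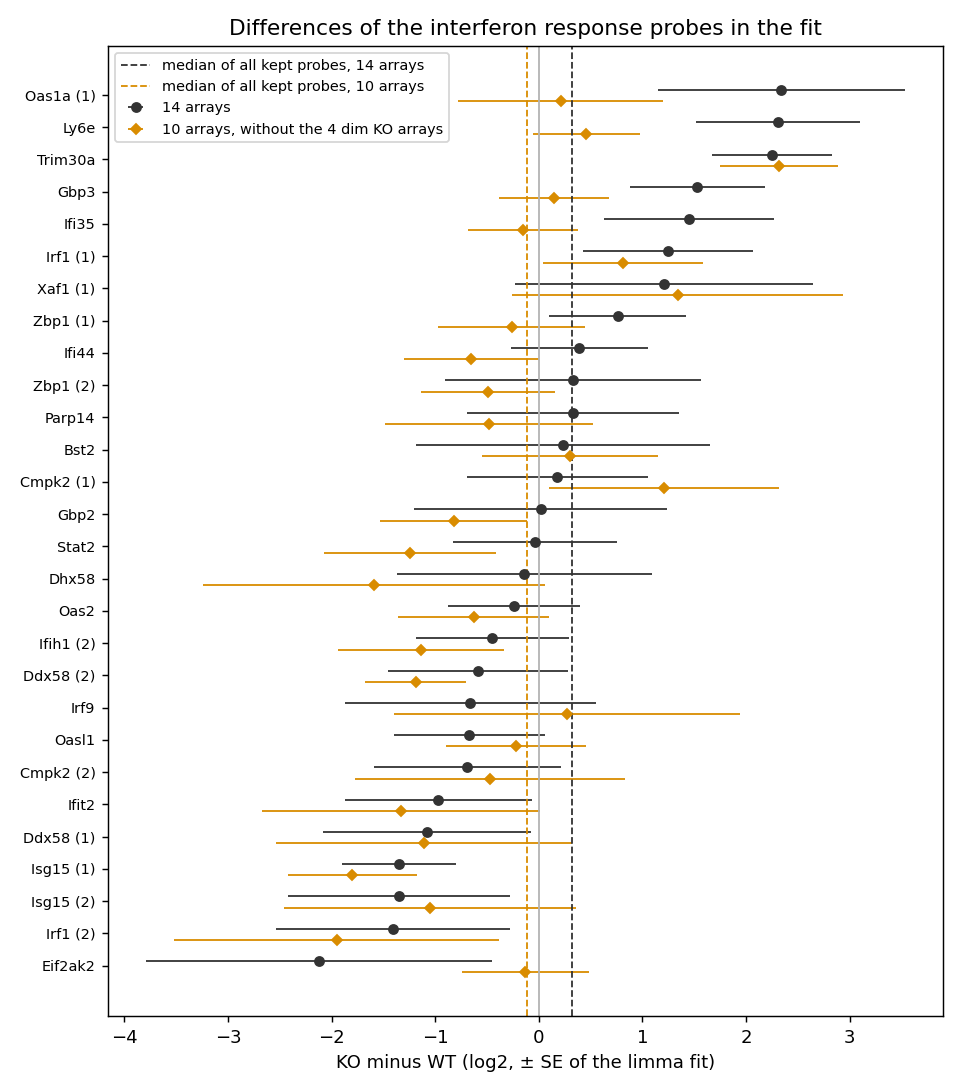
KO minus WT difference of 28 of the 29 tested interferon response probes on the log2 scale (Mx2, not above background on any KO array, is left out), with the standard error of the limma fit as bars, over all 14 arrays (black circles) and over the 10 arrays left without the 4 dim KO arrays (orange diamonds); dashed lines are the medians of all tested probes. Ly6e, Gbp3, Ifi35 and Oas1a move towards 0 without the dim arrays, while Trim30a is at 2.32.

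The transcription factors of the response showed no difference that passed the test. Stat2, a subunit of ISGF3 (probe at chr10:127729834-127729893, mm9), ranged from -5.40 to -1.19 on KO arrays with a median of -2.86, and from -4.93 to -1.08 on WT arrays with a median of -2.76. The groups overlap almost fully, and 2 KO and 5 WT arrays were above background. The difference was -0.04 (SE 0.79; limma, adjusted p = 0.981), and it was -1.24 without the dim arrays. For Irf9, the DNA-binding subunit of ISGF3 (chr14:56228806-56228865), KO arrays ranged from -5.37 to 1.43 with a median of -3.20 and WT arrays from -5.10 to 1.65 with a median of -2.38. It was detected on 2 KO and 5 WT arrays too, and the difference was -0.66 (SE 1.21; limma, adjusted p = 0.807), and 0.27 without the dim arrays. Irf1, an activator induced by interferon gamma as well, has 2 probes that disagree. The probe at chr11:53590746-53590805 ranged from -3.86 to 3.34 on KO arrays (median -0.01) and from -4.24 to 0.29 on WT arrays (median -0.79), and differed by 1.25 (SE 0.82; limma, adjusted p = 0.450). Its highest values, 3.18 and 3.34, were on dim KO arrays of set 2. The probe at chr11:53591817-53591876 differed by -1.41 (SE 1.13; limma, adjusted p = 0.535). Irf7, which amplifies interferon production, was above background on 3 of 7 arrays of each genotype and was not tested. In WT these were the 3 arrays of set 1, and 0 of 4 arrays of set 2. In KO they were 1 of 3 arrays of set 1 and 2 of 4 of set 2. Its level was -1.38 ± 3.03 on KO and -2.55 ± 2.60 on WT arrays (SD, n = 7 each). The direction differed between slides, with KO minus WT at -3.02 within slide 1 and 4.33 within slide 2, and both rest in part on undetected signals.

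Among the 5 sensors, 1 of the 2 Zbp1 probes was detected on all 14 arrays, and the other 4 were above background on fewer KO than WT arrays. Zbp1 senses unusual forms of nucleic acid. Its probe at chr2:173039307-173039366 was above background on all arrays and ranged from 1.19 to 4.71 on KO arrays (median 2.92) and from 0.67 to 4.32 on WT arrays (median 1.80). The ranges nearly coincide, and the difference was 0.76 (SE 0.66; limma, adjusted p = 0.571) and -0.26 without the dim arrays. Eif2ak2 encodes PKR, a kinase that stops translation when it binds double-stranded RNA, and its promoter stretch is shown above. WT arrays held a narrow range for its probe at chr17:79252168-79252227, from 1.35 to 4.01 with a median of 2.43. KO arrays spread from -5.41 to 9.02 with a median of 1.42. All 3 KO arrays where it was not above background, at -5.41, -3.25 and -3.43, were dim arrays, and the highest, 9.02, was also dim. The difference was -2.12 (SE 1.67; limma, adjusted p = 0.529) and -0.13 without the dim arrays. Ddx58 encodes RIG-I and Ifih1 encodes MDA5, sensors of viral RNA, and the probe used for each was detected on all 7 WT arrays and on 5 and 3 KO arrays. Their differences were -0.59 (SE 0.87) and -0.45 (SE 0.74) (limma, adjusted p = 0.756 and 0.781), and without the dim arrays -1.19 and -1.14. Dhx58, a regulator of both, was above background on 3 KO and 5 WT arrays and differed by -0.14 (SE 1.23; limma, adjusted p = 0.965).

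Among the antiviral effectors, Ly6e had the smallest p and a difference that shrank without the dim arrays, and Mx2 was detected on WT arrays only. Ly6e encodes a lipid-anchored surface protein that affects viral entry (probe at chr15:74789592-74789651). It was above background on all 14 arrays, from 6.61 to 12.32 on KO arrays with a median of 8.98 and from 5.82 to 7.96 on WT arrays with a median of 6.65. The 4 highest KO values, 12.32, 10.13, 9.80 and 8.98, belong to the 4 dim arrays, and the other 3, 7.74, 7.63 and 6.61, lie inside the WT range. The difference was 2.31 (SE 0.79; limma, unadjusted p = 0.0100, adjusted p = 0.309), 0.46 without the dim arrays. Over all 7057 probes detected on every array, the mean level was also higher on the dim arrays, 3.82 to 5.96 against 2.68 to 3.23 on WT arrays.

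Oas1a makes the 2'-5' oligoadenylates that activate RNase L, and its promoter holds overlapping ISRE cores. The probe at chr5:121348338-121348397 ranged from -2.50 to 6.34 on KO arrays (median -0.35) and from -2.89 to 1.65 on WT arrays (median -1.92). The highest values, 6.34 and 3.79, were on dim KO arrays. The difference was 2.34 (SE 1.19; limma, adjusted p = 0.377) and 0.21 without the dim arrays. The other Oas1a probe was above background on 1 KO and 2 WT arrays and was not tested. Oasl1, a related protein that restrains translation of Irf7, ranged from -5.44 to -0.37 on KO arrays (median -1.96) and from -3.11 to 0.49 on WT arrays (median -1.59), with overlap. It was above background on 4 KO and 7 WT arrays and differed by -0.67 (SE 0.73; limma, adjusted p = 0.659; probe at chr5:115387861-115387920). Oas2 was above background on 2 KO and 5 WT arrays and differed by -0.24 (SE 0.64; limma, adjusted p = 0.873). Oas3 and Oasl2 were above background on 0 KO and 2 WT arrays each.

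Mx2 encodes a dynamin-like GTPase that traps viral components (probe at chr16:97782327-97782386). Signal above background was found on 5 WT and 0 KO arrays, in set 1 on 3 of 3 against 0 of 3 and in set 2 on 2 of 4 against 0 of 4. Among the probes detected on at least 5 WT arrays, 1 of 27 interferon response probes (3.7%) and 0.571% of all 25560 were on 0 KO arrays, a limit chosen after the values were seen. Levels on KO arrays ranged from -6.27 to -1.03 with a median of -4.58 and on WT arrays from -3.84 to -1.01 with a median of -2.81. The 3 KO arrays that were not dim, at -6.27, -4.58 and -5.37, lie below all WT arrays, and the high KO values, -1.03, -1.55 and -3.05, are undetected signals on dim arrays of set 2. The genotypes did not differ past the threshold (limma, adjusted p = 0.469, and 0.633 without the dim arrays). No size of a difference is given against KO arrays, because the mean bound over KO arrays, set for each by the lowest signal well above background or the probe's own if higher, was -2.37 and exceeded the WT mean of -2.75. Mx1 was above background on 1 WT and 0 KO arrays.

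Ifit2, which binds foreign RNA and limits its translation (probe at chr19:34650244-34650303), ranged from -4.07 to -0.79 on KO arrays (median -2.15) and from -5.40 to 0.44 on WT arrays (median -0.24). In WT it split into detected values of -0.70 to 0.44 on 5 arrays and undetected values of -5.40 and -3.91 on the other 2. The difference was -0.97 (SE 0.90; limma, adjusted p = 0.601). Its neighbours Ifit1 and Ifit3 were above background on 2 KO and 3 WT arrays each, and Rsad2, which encodes viperin, on 1 of each. Bst2, which encodes tetherin, was above background on 5 KO and 7 WT arrays and differed by 0.23 (SE 1.42; limma, adjusted p = 0.949). The 2 probes of Cmpk2, a mitochondrial nucleotide kinase next to Rsad2 on chromosome 12, differed by 0.18 (SE 0.87) and -0.69 (SE 0.90), in opposite directions (limma, adjusted p = 0.931 and 0.723).

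Isg15 had the smallest p among the genes lower in KO. On KO arrays the probe at chr4:155573649-155573708 ranged from -3.70 to -1.16 with a median of -2.90, and on WT arrays from -3.52 to 0.05 with a median of -1.03. In set 2 the WT arrays lay at -0.54, 0.05, -0.03 and -1.29 and the KO arrays at -1.16, -1.55, -1.55 and -2.90, with 1 value crossing. In set 1 the WT arrays lay at -3.52, -1.95 and -1.03 and the KO arrays at -3.70, -3.36 and -3.57. The probe was above background on 3 KO and 6 WT arrays, so it entered the test through WT alone. The KO values -1.16, -1.55 and -1.55 of set 2 and -3.57 of set 1, all on dim arrays, are undetected signals. So is the WT value of -3.52. The difference was -1.35 (SE 0.55; limma, unadjusted p = 0.0262, adjusted p = 0.354), and its size rests in part on these undetected signals. It was -1.80 without the dim arrays, -1.38 within slide 1 and -1.50 within slide 2. The second Isg15 probe was also above background on 3 KO and 6 WT arrays and differed by -1.35 (SE 1.07; limma, adjusted p = 0.531). Usp18, the protease that removes Isg15 from proteins and blocks the receptor, was above background on 1 KO and 2 WT arrays.

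Among the GTPases and other induced genes, Trim30a had the smallest p of all members. It encodes a ring-finger protein that restrains Toll-like receptor signalling (probe at chr7:111557578-111557637). The KO arrays lay at -2.18, -2.60 and -0.99 in set 1 and at -3.16, -1.66, -3.34 and -2.04 in set 2. The WT arrays lay at -5.77, -3.75 and -4.47 in set 1 and at -3.52, -5.24, -4.21 and -4.72 in set 2. The probe was above background on 4 KO arrays and 1 WT array, so it entered the test through KO alone, and 6 of the WT values and 3 of the KO values are undetected signals. The 4 KO arrays with detection, which include the 3 that were not dim, lay above all WT arrays, and the other 3 are the dim arrays of set 2. With the arrays scaled to the probes detected on all 14, those 4 lay at -7.19, -7.46, -7.50 and -6.65, again above the highest WT value of -8.13. The other 3, at -10.42, -10.26 and -9.71, then lay within the WT range, which reached down to -11.14, so the groups overlap. The fitted difference was 2.25 (SE 0.58; limma, unadjusted p = 0.00129, adjusted p = 0.210), and its size rests on WT signal that was above background on 1 of 7 arrays. It was 2.32 without the dim arrays (limma, adjusted p = 0.599), 2.74 within slide 1 and 1.31 within slide 2.

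**Figure D5:**
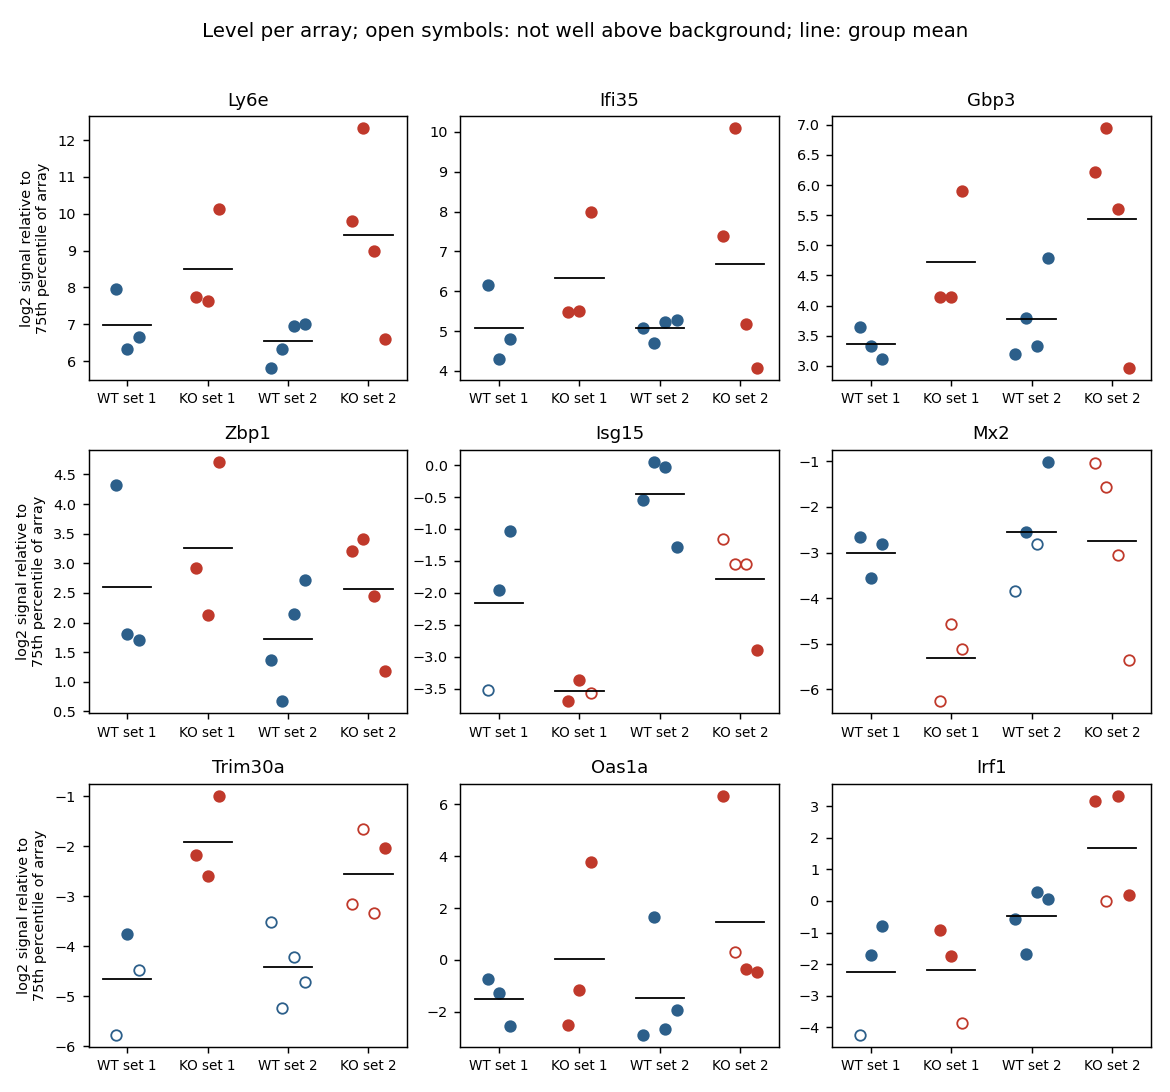
Level of 9 interferon response probes on each array (log2 signal relative to the array's 75th percentile), by genotype and set; red is Bmi1 KO, blue WT, open symbols are not well above background and lines are group means. Trim30a has filled symbols on 4 KO arrays and 1 WT array, Mx2 has open symbols on all KO arrays, and Ly6e, Ifi35 and Gbp3 have their highest value on the same KO array, replicate 2 of set 2.

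Ifi35, which binds Nmi in a complex that modulates innate signalling (probe at chr11:101319011-101319070), was above background on all arrays, from 4.08 to 10.09 on KO arrays (median 5.51) and from 4.30 to 6.16 on WT arrays (median 5.09). Its 2 highest values, 10.09 and 7.99, were on dim KO arrays. The difference was 1.45 (SE 0.82; limma, adjusted p = 0.401) and -0.15 without the dim arrays. Gbp3, a guanylate-binding GTPase that acts on vacuoles of intracellular pathogens (chr3:142236032-142236091), ranged from 2.97 to 6.94 on KO arrays (median 5.61) and from 3.12 to 4.79 on WT arrays (median 3.33). The 4 dim KO arrays held its 4 highest values, and the lowest KO value was below all WT arrays. The difference was 1.53 (SE 0.65; limma, unadjusted p = 0.0313, adjusted p = 0.357) and 0.15 without the dim arrays. Gbp2, from the same family, differed by 0.02 (SE 1.22; limma, adjusted p = 0.994).

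Xaf1, which opposes the apoptosis inhibitor Xiap (probe at chr11:72122169-72122228), was above background on 5 arrays of each genotype. It ranged from -3.44 to 6.36 on KO arrays (median 0.82) and from -5.17 to 2.35 on WT arrays (median 0.94), which overlap, and differed by 1.21 (SE 1.44; limma, adjusted p = 0.688). Ifi44 was above background on 3 KO and 6 WT arrays and differed by 0.39 (SE 0.66; limma, adjusted p = 0.786). Parp14, an ADP-ribosyltransferase, was on 3 and 5 arrays and differed by 0.33 (SE 1.02; limma, adjusted p = 0.889), and Rtp4 was on 2 of each.

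The difference between genotypes was also compared between the 2 sets. Taken within each set, 0 of 29 interferon response probes passed the test in set 1 and 0 of 29 in set 2 (limma, Benjamini-Hochberg), against 0.0236% and 0.0135% of all probes. The median difference of the interferon response probes was -0.31 in set 1, where that of all probes was -0.04, and 0.31 in set 2, where that of all probes was 0.71. Below 0 lay 58.6% of the 29 in set 1, against 51.4% of all probes, and 48.3% in set 2, against 31.6%. The interaction of genotype and set passed for 0 of 29, and for 0% of all probes. At an unadjusted p under 0.05 stood 2 of 29 (6.9%), a probe each of Cmpk2 and Ifih1, against 5.37% of all probes. Trim30a differed by 2.74 (SE 0.88) in set 1 and 1.87 (SE 0.76) in set 2, and Isg15 by -1.38 (SE 0.86) and -1.34 (SE 0.74). For both genes these sizes rest in part on undetected signals.

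The 4 probes detected on every array were also compared for how they varied together within groups. Deviations from the mean of each genotype in each set correlated at a mean r of 0.82 over the 6 pairs of Ly6e, Ifi35, Gbp3 and Zbp1, against 0.42 over all pairs of the 7057 probes detected on all arrays. The arrays share their brightness in these values. With each array scaled to those 7057 probes, the mean r was -0.05 for the 4 probes and 0.07 for all pairs. Ly6e with Ifi35 went from r = 0.96 to 0.76, and Ifi35 with Gbp3 from 0.82 to -0.51.

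The rest of the pathway was described with lists of genes other than the 33. No gene of the receptors, kinases and Stat factors passed the test among 10 measured (limma, Benjamini-Hochberg). Ifnar2, Jak1 and Tyk2 were above background on all 14 arrays, and Ifnar1 on 5 KO and 7 WT arrays. The smallest p in this list belonged to Ifngr1 and Ifngr2, subunits of the interferon gamma receptor, at 2.63 and 2.35, and to Il10rb at -2.34. Among genes that lead to interferon production, 0 of 14 passed, with Myd88, an adaptor of Toll-like receptors, at 2.37, Ticam1 at -1.75 and Traf3 at 1.71. Tlr7, Tlr9 and Irf5 were detected on all 14 arrays. Of 9 negative regulators, 0 passed, with Irf2bp2 at 1.98, Ptpn6 at 1.26 and Nlrc5 at -1.05.

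Of 16 interferon genes on the array, 0 to 11 were above background on a KO array and 1 to 9 on a WT array. Ifnb1, Ifna4 and Ifne were not above background on any array, and 0 of the 9 that could be tested passed, among them Ifnl3 at 1.52, Ifna11 at 1.09, and Ifnk, which was above background on 5 WT and 0 KO arrays. Of 86 further interferon-induced genes on the array, 72 were tested and 0 passed. Their median lay at 0.48 relative to all probes, with 27 of 72 below the median of all probes, whereas the 29 probes of the 33 genes lay at -0.36. The 2 values are not alike: the 72 are the brightest tested probe of each gene, and the 29 are every tested probe. In the setting with 1 probe per gene, 24 of the 33 genes were tested and their median relative to all was also -0.36. Detection differed as well, with 30 of the 86 genes above background on all 14 arrays by any of their probes. Of the 33 genes, only Ly6e, Ifi35, Gbp3 and Zbp1 were. The part of detection in this contrast was not tested. The smallest p in that list belonged to Rnf213 at -3.35 (limma, adjusted p = 0.231), Trim30d at -2.98 (limma, adjusted p = 0.256) and Ms4a4b at 2.12. In the interferon-inducible p200 family, 1 of 7 genes passed: AI607873 was above background on 7 WT and 0 KO arrays and was at least 11.5-fold lower in KO (limma, adjusted p = 0.0378). It entered the test through WT alone, and that p-value rests on undetected KO signals. Its mean was 1.15 on WT arrays, and the bound on KO arrays, formed as for Mx2, was -2.37.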

How the data were processed

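RNA of 14 samples was hybridised to Agilent one-colour mouse arrays. Spot intensity came, per the file headers, from Agilent Feature Extraction 10.7.3.1, and probe positions refer to mm9; the annotation of that build was not used here, so exon and UTR are not given. The deposited scanner output also holds a mark per spot for signal well above background, scored 0 or 1. The authors' deposited log2 values, whose median is 3.952 in all 14 columns, follow the quantile-normalized intensities (r at least 0.9995) and served as an alternative; the tool behind them is not given in the sources used. Slide 1 held set 1, slide 2 held 4 KO and 2 WT arrays of set 2, and slide 3 held its other 2 WT arrays, per the file headers.

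From 62976 spots, 59305 were not controls, 0 were saturated, and 55681 probes remained. Values are log2 intensity minus the 75th percentile of the array, with outlier spots left out and spots of a probe averaged. Probes above background on at least 4 of 7 arrays of a genotype (29679) entered limma 3.58.1 (R 4.3.3, package data.table of version 1.17.8) with set as covariate, two-sided, Benjamini-Hochberg adjusted, threshold 0.05. Figures used pandas 2.3.3 and matplotlib 3.10.9 in Python 3.11.15. The fit was tested on simulated data. A gene with several probes is described by its tested probe with the highest mean, and the other probe is given for most of these genes. Accessions of 39 of 41 probes matched RefSeq (GRCm38.p6), with the same symbol for all 39. Promoters and names come from RefSeq and its positions were not mixed with mm9.

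Members, roles and lists were chosen with earlier results of these data known. Named were all 33 genes, with full values for Stat2, Irf9, Irf7, Irf1 and the 12 others of smallest p, up to 3 genes of smallest p from other lists, and promoter stretches of up to 8 genes. Pathway genes and probes named beside these were chosen after their values were seen. Replicate numbers recur in the titles of both genotypes, but deviations of same-numbered arrays correlated at only -0.22 to 0.19, so they were not treated as pairs. Within a group, arrays correlated at 0.597 to 0.931 over probes, and no duplicate arrays were seen. Alternatives were other scalings and background corrections, filters, slide and replicate blocks, leaving out each array, and, chosen after seeing the data, leaving out the 4 dim KO arrays. Some genes of the pathway lists are not reported here.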

Additional observations from a re-analysis of the deposited data

Results flagged for a closer look

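Among 38 groups of array values checked for a lone extreme sample, 1 was found, where chance alone flags about 1 group in every 20 checked. The Gbp3 probe at WT set 2 replicate 4 stood at 4.79, above the next WT array at 3.79 and the lowest at 3.12 (n = 7). Its mark for signal above background was set, and the KO arrays ranged from 2.97 to 6.94.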

How the results depend on the processing

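No interferon response probe was called in any of the settings run, and the interaction with set gave 0 calls in each of 7 settings. The median of these probes relative to all probes stayed below 0 throughout, from -1.02 (without KO set 2 replicate 2) to -0.04 (normexp). The number of all probes called was 9 and moved to 132 with arrays scaled to probes detected on all arrays, 26 with quantile normalization, 26 with the deposited values, 21 for probes above background on all 7 arrays of a genotype, 5 with 1 probe per gene and 5 without the 4 dim KO arrays. With each replicate left out it ran from 5 to 65; it was 65 without KO set 1 replicate 3, 37 without KO set 2 replicate 4, and 5 without KO set 1 replicate 2 or 4, WT set 1 replicate 3 or 4, or WT set 2 replicate 1, 2 or 3. The replicate block gave 8 calls and changed no call among the interferon response probes. The mean number of these probes detected per KO array was 28 without the dim arrays, which were picked by the same mark over all probes.

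Scaling to probes detected on all arrays lowers every difference alike, which put Zbp1 at -0.58, Xaf1 at -0.12 and Irf1 at -0.08; relative to all probes they stayed at 0.44, 0.89 and 0.93. Other signs turned with no call. Zbp1 was 0.00 with quantile normalization and with the deposited values. Under normexp, Irf9 was 0.04, Stat2 0.24 and Mx2, undetected in KO, 0.14. Stat2 was 0.08 with slide as a fixed block and ran from -0.39 to 0.36 with each replicate left out (above 0 at 0.02, 0.13, 0.19, 0.04, 0.32 and 0.36). Over the same settings Irf9 ran from -1.24 to 0.04, with 0.04 without KO set 1 replicate 4 and 0.00 without WT set 2 replicate 2. Without the dim arrays Ifi35 was -0.15, Zbp1 -0.26 and Irf9 0.27. The cause of these changes was not tested. Signal over background limits probes such as Mx2, Trim30a, Irf9, Stat2 and Oas2, which were undetected on several arrays.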
